A study of Homo sapiens with 6 samples.

Results

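The genes described here encode the proteins of the cytosolic ribosome. Members were the rows of type mRNA whose symbols follow the RPL, RPLP, RPS or RPSA pattern, chosen by name and not by level. Counted here are 84 of the 41768 named genes of the expression table, 53 for the large (60S) and 31 for the small (40S) subunit. The values come from poly(A)-selected RNA-seq of 6 libraries from 2 human cell lines of pancreatic ductal adenocarcinoma (PDAC). PANC-1 is an established PDAC line, and the other line is called 90 in the labels. In each line, 1 library is labelled NC and 2 libraries are labelled siALDOA (spelled siAldoa for the 90 line), read here as small interfering RNA against ALDOA, the glycolytic enzyme aldolase A. The labels name no other agent, allele or time. The sources used here do not say what 90 and NC stand for, or if siALDOA 1 and 2 were distinct siRNAs. They also name no separate cultures, so the p-values measure the spread between libraries alone, which may be technical.

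A ribosome joins a small subunit, which reads the mRNA, with a large subunit, which forms the peptide bond, and each core ribosomal protein is needed in near equal number per ribosome. Cells make the proteins in step largely through translation: most ribosomal protein mRNAs begin at their cap with a C followed by an unbroken pyrimidine run, the terminal oligopyrimidine (TOP) motif, through which mTOR signalling and LARP1 set how well they are translated. Unassembled ribosomal proteins are degraded in the nucleus, and some, such as RPL5, RPL11 and RPL23, can bind the ubiquitin ligase MDM2. Several core genes have paralogs with narrower expression, among them RPL3L in heart and skeletal muscle and RPL10L and RPL39L in testis.

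The start sites show the pyrimidine run that most of these genes share. In several paralogs and a few core genes it was not found within 10 bases of the annotated start. RefSeq promoter sequences (GRCh38.p14) were found by symbol for 67 of the 84 members. Each 30-base window below runs 5′ to 3′ on the strand of the gene, with 12 bases before the annotated start and 18 from the start onward. Capitals mark a C followed by at least 4 C or T bases that begins within 10 bases of the start, and a run that reaches the window's end may go on beyond it. Core genes with the line differences described below come first, and then core genes beside their paralogs.
RPS6, chr9:19380219-19380248, minus strand: cggaagttggccCTCTTTTCCgtggcgcct
RPLP2, chr11:809955-809984, plus strand: cgtcggcgccttCCTTTTCCTCCCTgtcgc
RPL13A, chr19:49487596-49487625, plus strand: caaaacctcctcCTTTTCCaagcggctgcc
RPL39, chrX:119791613-119791642, minus strand: ttccgccagcttCCCTCCTCTTCCTTTCTC
RPS28, chr19:8321484-8321513, plus strand: ccgaagcacgtgaCTCCTCTCCgccagacc
RPL22, chr1:6199578-6199607, minus strand: ttcgctcacctcCCTTTCTaactccgctgc
RPL22L1, chr3:170870178-170870207, minus strand: ggccgtagcttcCTCTCTgctctcgcggcc
RPL36A, chrX:101390999-101391028, plus strand: gcctcgcggtttCTTTCTTTCCgcgccgat
RPL36AL, chr14:49620609-49620638, minus strand: tttcttccCTTTCCTgttaggcgagagctg
RPL26, chr17:8383176-8383205, minus strand: cagcgtgtagttCTCTTCCCTTTTgcggcc
RPL26L1, chr5:172958717-172958746, plus strand: cttccaggggtcggcgaacgaaacgcggag
RPS27, chr1:153990750-153990779, plus strand: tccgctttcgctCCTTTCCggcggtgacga
RPS27L, chr15:63157460-63157489, minus strand: ttgatgccgagcgcagatcgcttgcagctt
RPL10L, chr14:46651764-46651793, minus strand: gcgtagttaagagagcgcattttgacttcg
RPL7L1, chr6:42879604-42879633, plus strand: aagtgcggcgccgtagctaggagcggacgc
In RPS6, RPLP2, RPL13A, RPL39, RPL22, RPL22L1, RPL26, RPS27 and RPL36A the run begins at the annotated start base itself. RPS28 has it 1 base further in, and RPL36AL has it 4 bases before the start. RPL26L1, RPS27L, RPL10L and RPL7L1 have no such run within 10 bases of the start. Among core genes the same holds for RPS4X, RPS29, RPL6, RPL17 and RPL27. In the windows of RPL17, RPL27 and RPL26L1 such a run lies just outside that limit, so these genes are not shown to lack it.

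Of the 67 members with a promoter sequence, 46 (68.7%) had a run that began at the annotated start base, on the gene's own strand, in at least 1 listed start. The same was found for 7.60% of the 8688 tested genes with a promoter sequence and for 5.14% of all 27305 genes of the promoter table. Within 10 bases of the start, the run was present in 58 members (86.6%), against 42.0% of the tested genes and 38.4% of all. A match is a description of these letters at annotated starts and no measurement of translation. The runs were searched on 1 strand, and overlapping runs at a start counted once.

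The ALDOA level checks the labels of the siALDOA libraries. ALDOA stood at 726, 262 and 318 FPKM (fragments per kilobase per mega-fragment, M) in the NC, siAldoa 1 and siAldoa 2 libraries of 90, and at 906, 501 and 462 FPKM in the matching PANC-1 libraries. These levels are 36.1% and 43.8% of NC in 90, and 55.3% and 51.0% in PANC-1. Depth, read from the steps of the low values, was 17.8 to 21.8 M fragments in each library, so that 3 fragments on a gene of 1 kb correspond to 0.137 to 0.169 FPKM. The epithelial markers KRT8, KRT18 and KRT19 lay between 652 and 2427 FPKM in the 6 libraries. CDH1 lay at 38.0 to 44.5 FPKM in 90 and at 1.18 to 2.05 FPKM in PANC-1. EPCAM lay at 88.6 to 154 FPKM in 90 and at 7.51 to 17.5 FPKM in PANC-1. Of 13 leukocyte, fibroblast, endothelial and acinar markers, 11 did not exceed 0.579 FPKM in any library. CD68, a macrophage marker that tumour cells can also express, lay at 31.3 to 51.2 FPKM in 90 and 124 to 162 FPKM in PANC-1. The endothelial marker CDH5 lay at 3.004 to 3.28 FPKM in 90 and was listed at 0 in PANC-1 (limma adjusted p = 0.00066). The summed endothelial list was at 3.65 to 3.83 FPKM in 90 and at most 0.0357 FPKM in PANC-1, and the summed acinar list at 0.482 to 0.579 FPKM in 90 and 0.0374 to 0.153 FPKM in PANC-1. The part of these markers in the line differences was not tested.

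Ribosomal protein genes were among the most abundant mRNAs of both lines. Their summed level was 74420, 59640 and 72937 FPKM in the NC, siAldoa 1 and siAldoa 2 libraries of 90, and 66350, 60934 and 51263 FPKM in the same order in PANC-1. As a share of all FPKM of a library this is 14.2%, 12.3% and 13.7% in 90 and 12.5%, 11.7% and 10.8% in PANC-1. The mean share was 13.4% ± 0.942 (SD, n = 3) in 90 and 11.7% ± 0.876 (SD, n = 3) in PANC-1, and the ranges overlap, since the siAldoa 1 library of 90 lies below the NC library of PANC-1. These are shares of the sequenced RNA, so a lower share cannot be told apart from less of this RNA per cell or more of other RNA, nor can fewer cells of a type be told from less RNA per cell.

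Levels differed widely among the members. On the per-length FPKM scale, 25 members had a mean of at least 1000 FPKM, 51 of at least 500, 71 of at least 100 and 81 of at least 10. RPS2, at the entry of the mRNA channel, had the highest mean level, with 3411, 2389 and 3362 FPKM in 90 and 3141, 3097 and 2435 FPKM in PANC-1. RPLP1, an acidic protein of the stalk that recruits elongation factors, had 4089, 2819 and 3990 FPKM in 90 and 2573, 2307 and 1744 FPKM in PANC-1. RPL8, RPLP2 and RPLP0 were also among the 6 highest. The 6 lowest of those tested were RPL9, RPL21, RPS27L, RPS26, RPL22L1 and RPL36A, none above 50.7 FPKM in any library. RPL9, RPS26, RPL21 and RPL36A are core genes with many processed pseudogenes, and their pseudogene rows are given below.

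The order of levels was shared between the lines. Correlations were taken over the 82 members that passed the filter on low values (a mean of at least 1 FPKM). The mean log2(FPKM + 1) of 90 and that of PANC-1 had a Pearson correlation of 0.91 and a Spearman correlation of 0.88. Between libraries within a line the Pearson correlation was 0.982 to 0.997. These correlations are across genes, which are no replicates and share library and length. RPL3L was listed at 0 in 4 libraries, at 0.103 FPKM in siAldoa 2 of 90 and at 0.127 FPKM in NC of PANC-1. RPL10L was listed at 0 in all 6 libraries. Neither entered a test.

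**Figure D1:**
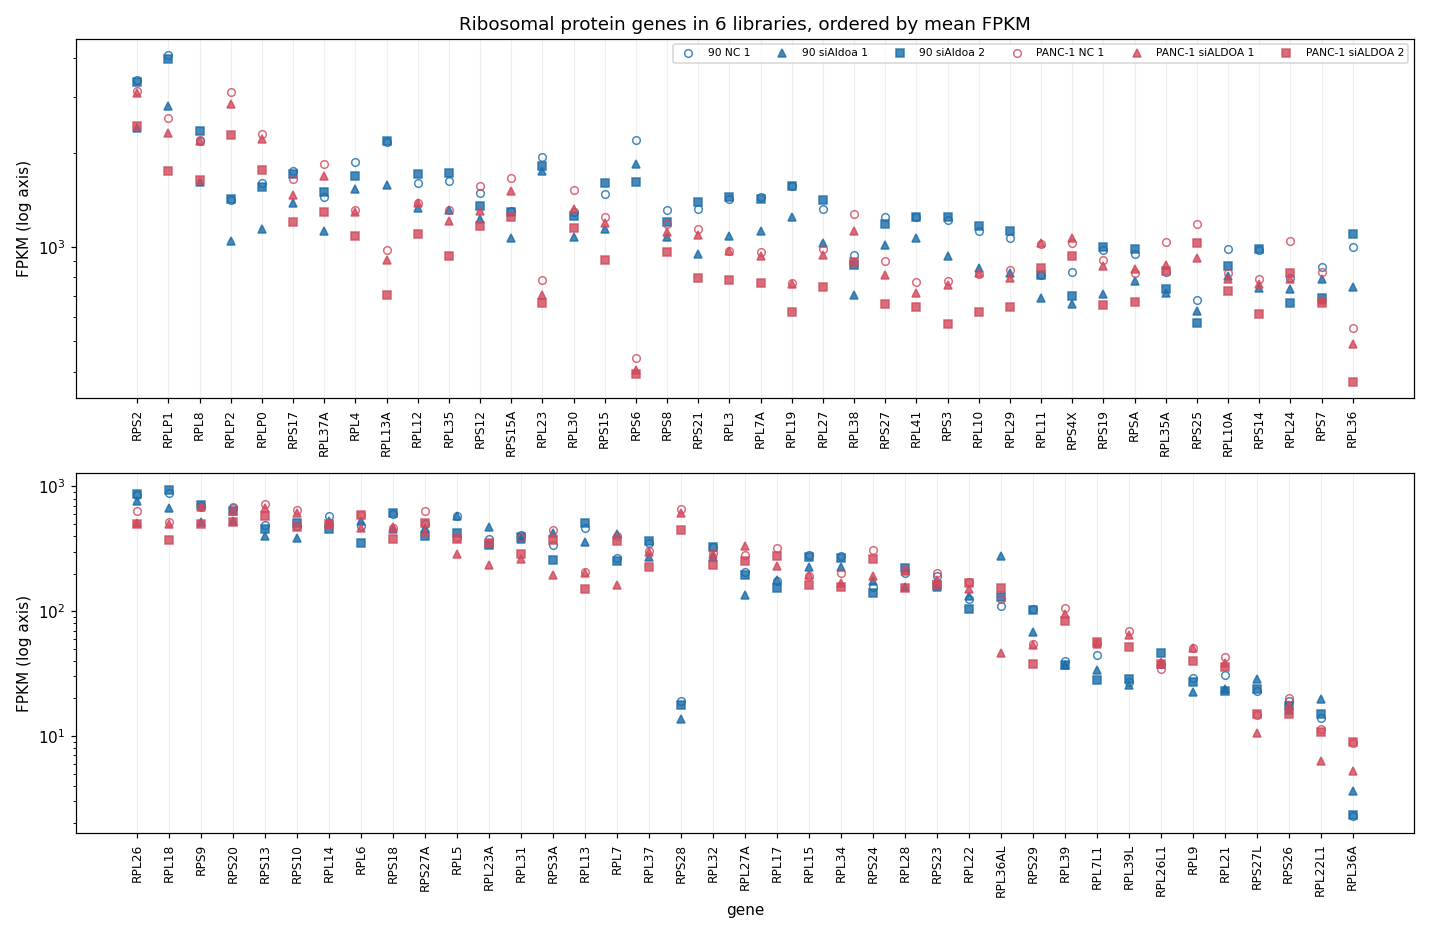
FPKM (log axis) of 79 of the 82 tested ribosomal protein genes, ordered by mean level from the upper left to the lower right. Each point is 1 library, blue for 90 and red for PANC-1, with hollow circles for NC, triangles for siALDOA 1 and squares for siALDOA 2. RPS28 and RPS6 show the widest gaps between the colours. For RPS28 the gap runs the other way once the FPKM of its pseudogene rows is added, a sum that depends on row lengths.

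The first comparison set PANC-1 against 90, over the NC and siALDOA libraries of both lines, and asked which ribosomal protein genes differ between the lines. RPS28, RPL39, RPL36A, RPL39L and RPLP2 were higher in PANC-1 by more than 1 log2 unit. With the FPKM of pseudogene rows added, RPS28 turned lower, though that sum depends on row lengths, and RPL36A lost its call. RPS6, RPL23, RPL13, RPL13A, RPL19 and RPL36 were lower by more than 1 log2 unit, and RPL13 was at -0.89 log2 with its pseudogene rows added. In all, 13 of 82 members were higher and 20 lower at an adjusted p under 0.05 (limma on log2(FPKM + 1), Benjamini-Hochberg adjustment over 12592 genes). These 33 members are 40.2% of those tested, against a background of 38.8% of all tested genes. The higher members are 15.9% against 20.4% of all genes, and the lower 24.4% against 18.4%. A share of called members this near the background is not a result about the ribosomal protein genes as a group.

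The differences spread less over the members than over all genes, and they ran in both directions. Their median difference, PANC-1 minus 90, was -0.15 log2, while that of all tested genes was 0.13, and 28 of 82 members lay above 0. Differences of at least 2-fold were found for 11 members (13.4%) and for 28.5% of all tested genes. The standard deviation of the differences was 0.84 log2 over members, which includes RPS28 at 5.01 log2, and 1.30 log2 over all genes. Most members are abundant, with 71 at a mean of at least 100 FPKM, while the tested genes reach down to a mean of 1 FPKM. No comparison with genes of like level was made, so the narrower spread is not shown to be particular to ribosomal protein genes. The libraries of the lines did not overlap for 44 members (53.7%, against a background of 54.1%), of which 18 were higher (background 29.0%) and 26 lower (background 25.1%) in PANC-1. In the large subunit, 8 of 51 tested members were called higher and 14 lower, with a median of -0.25 log2. In the small subunit, 5 of 31 were called higher and 6 lower, with a median of -0.11 log2. The summed FPKM of large-subunit members was 1.46, 1.48 and 1.49 times that of small-subunit members in the libraries of 90, and 1.37, 1.36 and 1.39 times in those of PANC-1, with no overlap between the lines. These sums leave out pseudogene rows. They hold RPS28 at 13.6 to 19.0 FPKM in 90, where its pseudogene RPS28P7 lay at 760 to 1089 FPKM, and at 444 to 660 FPKM in PANC-1. The ratio with pseudogene rows was not computed.

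How the calls split between the directions depended on the scaling. Dividing each library by a median ratio to the others gave 8 higher and 21 lower members, with a member median of -0.30 log2 beside 0.02 for all genes. Quantile normalization gave 23 higher and 26 lower, with a member median of -0.048 log2 beside 0.11 for all genes. TPM gave 17 higher and 24 lower, with a member median of -0.14 log2 beside 0.16. Centring each library on the members' own median gave 24 higher and 18 lower. Over all 12592 genes, the higher and lower calls numbered 1955 and 2452 with median-ratio scaling and 2172 and 2114 with quantile normalization. They numbered 2829 and 2491 with TPM, and 3620 and 2052 with that centring. The number of calls also depended on which libraries were kept. Without the NC library of 90, and likewise without the NC library of PANC-1, 5 members were called, beside 2424 and 2422 of all 12592 genes. These fits are the same check, since the siALDOA term then absorbs the remaining NC library. Both compare the siALDOA libraries of the lines alone, with a member median of -0.19 log2 in each. Without siAldoa 2 of 90, 16 were called (all genes: 3948), without siALDOA 2 of PANC-1, 12 (3348), and without siALDOA 1 of PANC-1, 21 (4110). The member share of calls lay above that of all genes with quantile normalization and below it without an NC library. How that share stands to the background thus depends on the setting. The 5 genes that kept their call without each of the 6 libraries in turn were RPS28, RPL39, RPL39L, RPS6 and RPL23.

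RPS6, a small-subunit protein and the classical substrate of S6 kinase below mTOR, had the lowest difference of all members. It lies at chr9:19375715-19380254 on the minus strand (GENCODE v29). Its level was 2187, 1834 and 1615 FPKM in 90 and 442, 406 and 393 FPKM in PANC-1. Each library of PANC-1 lay below each library of 90, with a difference of -2.17 log2 (SE 0.12, adjusted p = 0.000299), a 4.51-fold lower level. RPL23, a large-subunit protein at the face toward the small subunit that can also bind MDM2, is at chr17:38847865-38853843 on the minus strand. It stood at 1940, 1750 and 1819 FPKM in 90 and 786, 705 and 661 FPKM in PANC-1, and the lines did not overlap, with a difference of -1.36 log2 (SE 0.11, adjusted p = 0.000798).

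Further large-subunit genes were lower in PANC-1 with all 3 of its libraries below those of 90. RPL13A, a large-subunit protein also known as a regulator of inflammatory mRNAs outside the ribosome, had 2156, 1581 and 2185 FPKM in 90 and 978, 909 and 705 FPKM in PANC-1. The difference was -1.19 log2 (SE 0.18, adjusted p = 0.00659), and the adjusted p was 0.0544 without the NC library of 90 and 0.0548 without that of PANC-1. Here and for the genes below, these are the same check, on the siALDOA libraries alone. RPL13 had 466, 359 and 506 FPKM in 90 and 207, 203 and 152 FPKM in PANC-1, with a difference of -1.24 log2 (SE 0.19, adjusted p = 0.00677) and an adjusted p of 0.0512 without either NC library. With its pseudogene rows added, the limma difference was -0.89 log2 (SE 0.19, adjusted p = 0.0184). RPL19, which forms a bridge to the small subunit, had 1565, 1250 and 1560 FPKM in 90 and 767, 761 and 621 FPKM in PANC-1 and a difference of -1.02 log2 (SE 0.15, adjusted p = 0.00545), with adjusted p = 0.0550 without the NC library of 90 and 0.0557 without that of PANC-1. RPL36, RPL18, RPL41 and RPLP1 were lower too, with differences between -1.01 and -0.72 log2, as was RPS29 of the small subunit with -0.89 log2. Lower core members with smaller differences were RPS3, RPL26, RPL7A, RPS27, RPL34, RPL15 and RPL4, and RPL4 had the smallest of them, -0.46 log2.

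RPLP2 went the other way from its stalk partner RPLP1. It is at chr11:809647-812880 on the plus strand, and RPLP1 and RPLP2 form the dimers that sit on RPLP0. RPLP2 had 1412, 1042 and 1428 FPKM in 90 and 3127, 2848 and 2269 FPKM in PANC-1, with each PANC-1 library above each 90 library, and a difference of 1.09 log2 (SE 0.18, adjusted p = 0.00803). The call was lost on the siALDOA libraries alone, that is without the NC library of 90 (adjusted p = 0.0716) or of PANC-1 (adjusted p = 0.0699). RPLP1 was lower in PANC-1, with a difference of -0.72 log2 (SE 0.20, adjusted p = 0.0419). Its call was the less stable: it was kept in 1 of the 6 fits without 1 library, against 4 of 6 for RPLP2. Under TPM, median-ratio, quantile and GC scaling it was kept in 3 of 4, against 4 of 4 for RPLP2. RPLP0 had 1601, 1144 and 1554 FPKM in 90 and 2300, 2202 and 1763 FPKM in PANC-1, a difference of 0.55 log2 that did not pass (SE 0.17, adjusted p = 0.0615). The order of the stalk genes thus differed, with RPLP1 the highest of the 3 in every library of 90 and RPLP2 the highest in every library of PANC-1.

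RPL39 and its paralog RPL39L were both higher in PANC-1. RPL39 is a small protein that lines the exit tunnel of the large subunit, and its gene lies at chrX:119786504-119791643 on the minus strand. It had 40.1, 37.0 and 36.7 FPKM in 90 and 107, 95.1 and 83.2 FPKM in PANC-1, with no overlap and a difference of 1.29 log2 (SE 0.12, adjusted p = 0.00116). RPL39L, best known from male germ cells, is at chr3:187120948-187180908 on the minus strand and had 27.1, 25.6 and 28.8 FPKM in 90 and 69.7, 64.9 and 51.5 FPKM in PANC-1. Its difference was 1.15 log2 (SE 0.15, adjusted p = 0.00383). RPL39L made up 38.2% to 43.9% of the summed FPKM of the pair in all 6 libraries, and 21.1% to 23.0% once the pseudogene rows of RPL39, described below, were added. On either measure the ranges of the lines overlap. The remaining higher members were RPL9, RPS25, RPL17, RPL7L1, RPS24, RPL21, RPS13 and RPS4X, between 0.48 and 0.81 log2. Of these RPS24 lay at the threshold (adjusted p = 0.049999), and RPL9 turned to -0.29 log2 (adjusted p = 0.0922) once its pseudogene rows were added.

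**Figure D2:**
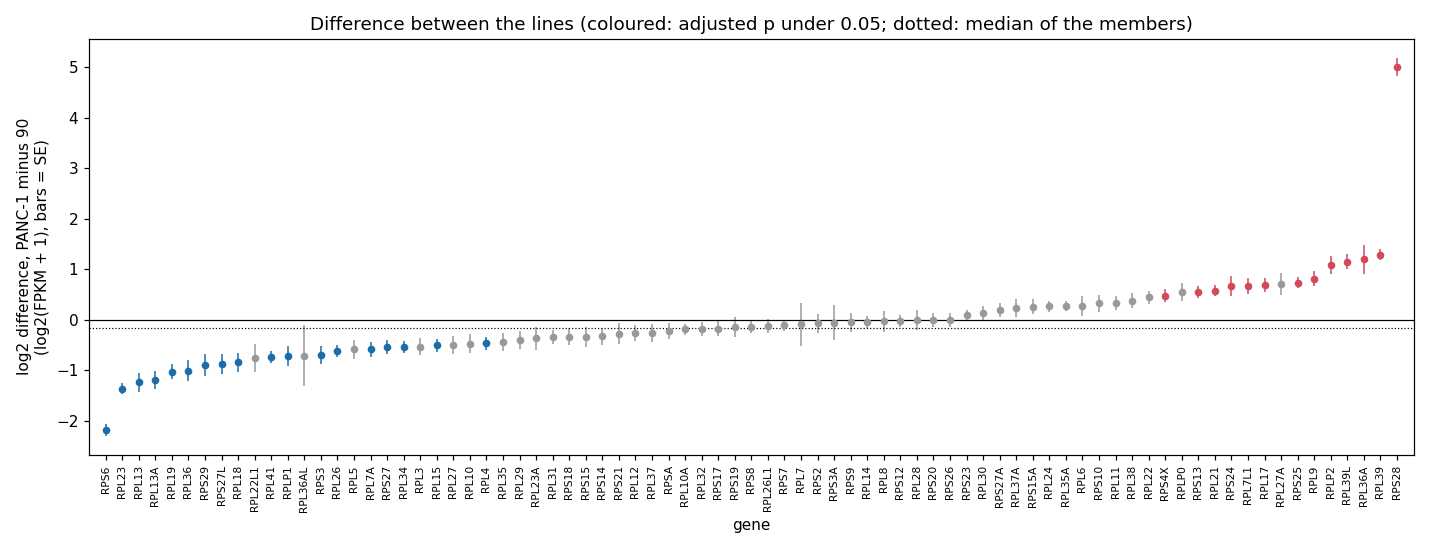
Difference in log2(FPKM + 1), PANC-1 minus 90, for 79 of the 82 tested members, with the standard error as a bar. Red and blue mark drawn members called higher (13) and lower (18) at an adjusted p under 0.05, grey those not called, and the dotted line the median of all 82, -0.15. RPS28 and RPL9 change direction when the FPKM of pseudogene rows is added, a sum that depends on row lengths.

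Retrocopies of ribosomal protein mRNAs are common in the human genome, and fragments can be counted to a copy instead of the gene, so both rows are given. The table held 1887 pseudogene rows named after 77 members, of which 654 rows, for 75 members, were above 0 in some library. They made up 5.40% to 6.51% of the summed FPKM of members and pseudogenes in a library, and the median over members was 1.09%. For 5 members the pseudogene rows held most of the summed level over the 6 libraries: RPL36A (98.1%), RPL9 (89.3%), RPS28 (62.7%), RPS26 (59.4%) and RPL39 (57.2%). The sources used here do not say how fragments that match several copies were counted, so the levels of these 5 genes are uncertain. They also do not give the row lengths, on which any sum of gene and pseudogene FPKM depends.

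RPS28, a small-subunit protein beside the exit of the mRNA channel, shows this most plainly. The gene, at chr19:8321158-8323340 on the plus strand, had 19.0, 13.6 and 17.6 FPKM in 90 and 660, 613 and 444 FPKM in PANC-1. Its pseudogene RPS28P7, at chr11:82689559-82689768 on the plus strand, had 1071, 760 and 1089 FPKM in 90 and 16.2, 17.6 and 8.54 FPKM in PANC-1. The gene row is thus high where the pseudogene row is low, in every library. For the gene the difference between the lines was 5.01 log2 (SE 0.18, adjusted p = 0.000179), and for RPS28P7 it was -6.05 log2 (SE 0.30, adjusted p = 0.000239). Gene and pseudogene rows together had 1090, 774 and 1107 FPKM in 90 and 677, 632 and 453 FPKM in PANC-1. On that sum RPS28 was lower in PANC-1, with a difference of -0.75 log2 (SE 0.21, adjusted p = 0.0406). FPKM is divided by row length, and the sources do not give the lengths used. The longest protein-coding transcript of RPS28 has 1326 bases and the pseudogene spans far fewer, so a fragment may add more FPKM to the pseudogene row. The direction of the sum thus depends on row lengths, and fragment numbers were not tested.

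With pseudogene rows added, RPL9 changed direction, RPL36A lost its call and RPS26 gained one. RPL9 itself had 29.2, 22.6 and 27.1 FPKM in 90 and 50.7, 50.5 and 40.0 FPKM in PANC-1, while its summed pseudogene rows had 381, 335 and 335 FPKM in 90 and 300, 255 and 228 FPKM in PANC-1. RPL36A had 2.26, 3.65 and 2.34 FPKM in 90 and 8.77, 5.27 and 8.998 FPKM in PANC-1, beside 219, 266 and 216 FPKM and 385, 243 and 313 FPKM in its pseudogene rows. Its difference of 1.20 log2 (adjusted p = 0.0273) became 0.42 log2 (adjusted p = 0.171) with these rows added. RPL39 remained higher with its pseudogene rows, by 1.09 log2 (SE 0.13, adjusted p = 0.00251). RPS26, with 18.9, 16.1 and 17.4 FPKM in 90 and 20.1, 17.7 and 14.9 FPKM in PANC-1, had 0.00 log2 between the lines. Its pseudogene rows had 17.99, 16.8 and 17.9 FPKM in 90 and 33.9, 37.5 and 29.5 FPKM in PANC-1, and with them RPS26 was higher in PANC-1 by 0.53 log2 (SE 0.13, adjusted p = 0.0315). RPL21, whose pseudogene rows had 24.0, 21.9 and 15.2 FPKM in 90 and 27.2, 18.4 and 24.99 FPKM in PANC-1, went from 0.58 log2 (adjusted p = 0.0156) to 0.44 log2 (adjusted p = 0.0467). With pseudogene rows added to every member, 32 members were called (all genes: 4881 of 12592), 11 higher and 21 lower, with a median of -0.18 log2. Rows of read-through genes overlap 3 members: RPS10-NUDT3 lay at 102 to 175 FPKM, RPL17-C18orf32 at 33.0 to 66.3 FPKM and RPL36A-HNRNPH2 at 4.66 to 23.1 FPKM, so RPS10, RPL17 and RPL36A may share fragments with them.

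**Figure D3:**
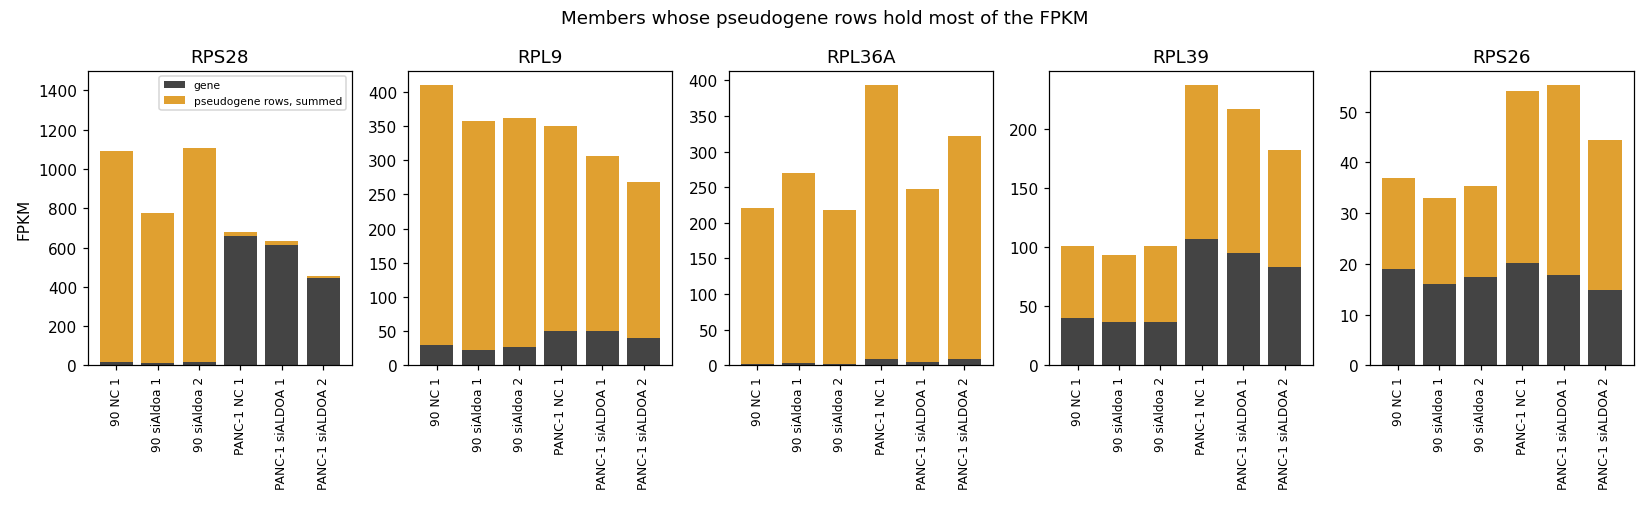
FPKM of the gene row (black) and of the summed pseudogene rows (orange) in each library, for the 5 members whose pseudogene rows hold most of the summed level. For RPS28 the pseudogene rows are tall in the 3 libraries of 90 (761 to 1089 FPKM) and the gene row in the 3 libraries of PANC-1 (444 to 660 FPKM). The summed FPKM is lower in PANC-1, which depends on the row lengths.

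The line differences of members were correlated with those of the genes next to them, with many exceptions. For the 76 members with at least 5 tested non-member mRNA genes within 1 Mb, the member's difference and the median of its neighbours had a Pearson correlation of 0.45 and a Spearman correlation of 0.69, and without RPS28 (75 members) the values were 0.69 and 0.72. The member lay on the same side of 0 as the median of its neighbours in 49 of the 76 and on the opposite side in 27. Of the 31 among them that were called between the lines, 25 lay on the same side and 6 on the opposite side, namely RPLP1, RPL4, RPL41, RPS3, RPL15 and RPS27L. This is a description across genes: neighbourhoods overlap, and all differences come from the same 6 libraries. The same values were not computed for all tested genes, so the correlation and side counts are not shown to be particular to ribosomal protein genes. Gene copy number was not measured here.

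RPL39 had 16 such neighbours, with a median of 1.22 log2, of which 9 were called higher and 0 lay below 0. RPLP2 had 36, with a median of 1.23 log2 and 24 called higher. RPL27A on chromosome 11, with 207, 134 and 195 FPKM in 90 and 283, 333 and 253 FPKM in PANC-1 and 0.71 log2 (adjusted p = 0.0519), had 12 neighbours with a median of 1.38 log2. For each of these 3 genes, both the gene and the median of its neighbours lay above 0. RPL23 had 18 neighbours with a median of -0.61 log2, of which 16 lay below 0 and 9 were called lower. RPL19, close to RPL23 on chromosome 17, had 27 with a median of -0.47 log2, of which 11 were called lower and 0 higher. RPL18 had 45 with -0.75 log2, and RPL13A had 55 with -0.51 log2. Some members stood apart from their surroundings. RPS28 (27 neighbours, 0.03 log2), RPL39L (6 neighbours, 0.13 log2) and RPL31 (7 neighbours, 1.27 log2, against -0.34 log2 for RPL31 itself) did so.

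At least 3 members were called on each of the chromosomes X, 11, 15, 17 and 19. On the X chromosome, 3 of 4 tested members (RPL39, RPL36A and RPS4X) were called higher, where 34.3% of all tested genes were, and RPL36A lost its call with its pseudogene rows. On chromosome 11, 3 of 5 were called higher (26.5% of all genes there) and 1 lower (18.1%). On chromosome 15, 3 of 4 were called lower (17.6%) and 0 higher (14.9%), and on chromosome 17, 3 of 6 lower (18.9%) and 0 higher (20.7%). On chromosome 19, 5 of 11 were called lower (20.4%) and 1 higher (23.2%), which was RPS28, whose direction turned with its pseudogene rows. These chromosomes are listed because of their calls, so their shares tend to lie above the background. On chromosome 3, 1 of 9 members was called higher and 1 lower, and on chromosomes 2, 5 and 8, 0 of 4 each were called. With so few members on a chromosome these counts are a description. The line difference over the 82 members had a Pearson correlation of -0.04 with GC content and of -0.09 with transcript length.

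**Figure D4:**
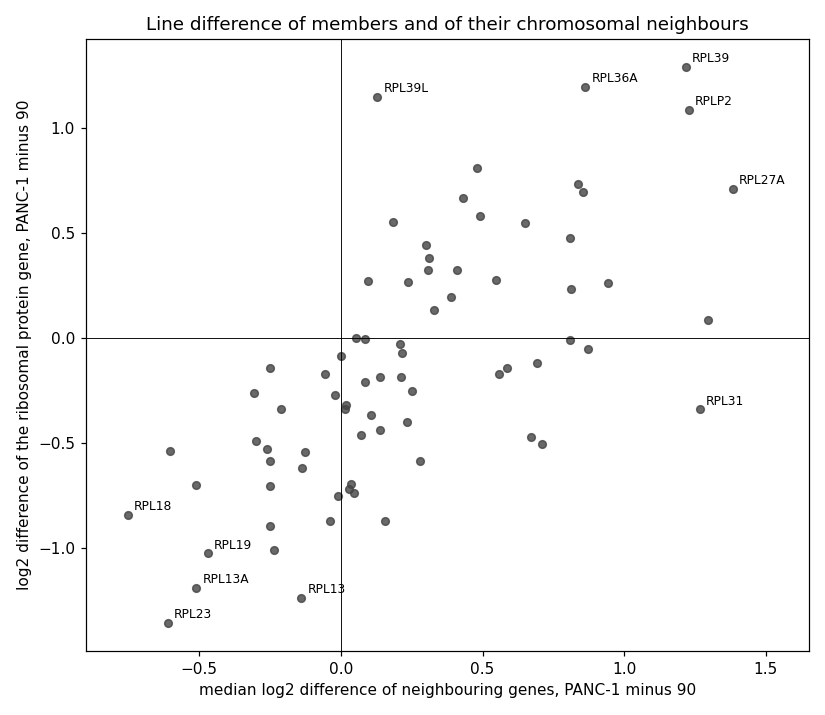
Difference of each member in log2(FPKM + 1), PANC-1 minus 90 (vertical axis), against the median difference of the tested non-member mRNA genes within 1 Mb (horizontal axis). Each point is 1 member with at least 5 such neighbours, and RPS28 (5.01 against 0.03) is outside the plotted range. RPL39, RPLP2 and RPL27A lie at the upper right and RPL23, RPL19, RPL18 and RPL13A at the lower left, with RPL31 and RPL39L away from the diagonal.

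The tested paralogs other than RPL36AL had lower levels than their parents in every library. RPL36AL, a gene on chromosome 14 that encodes a protein close to that of RPL36A, held 89.8% to 98.7% of the summed FPKM of the pair, but 15.8% to 50.6% once the pseudogene rows of RPL36A were added. RPL36AL had 110, 276 and 131 FPKM in 90 and 126, 46.4 and 153 FPKM in PANC-1, and siALDOA 1 was its highest library in 90 and its lowest in PANC-1. Its line difference was -0.71 log2 (SE 0.60, adjusted p = 0.426). RPL22L1, the paralog of the RNA-binding protein RPL22, had 14.0, 19.9 and 14.9 FPKM in 90 and 11.3, 6.27 and 10.7 FPKM in PANC-1, which is 3.97% to 6.16% of the pair in PANC-1 and 9.95% to 13.1% in 90, with no overlap. Its difference of -0.75 log2 did not pass (SE 0.28, adjusted p = 0.0977), while RPL22 was at 0.45 log2 (adjusted p = 0.0524).

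RPS27L, a paralog of RPS27, had 22.8, 28.9 and 23.9 FPKM in 90 and 14.7, 10.6 and 14.9 FPKM in PANC-1. It was lower in PANC-1, with a difference of -0.87 log2 (SE 0.20, adjusted p = 0.0224), as was RPS27, with -0.54 log2 (adjusted p = 0.0353). Of the 6 fits without 1 library, the call was kept in 1 for RPS27L and in 0 for RPS27. RPS27L was 1.29% to 2.77% of the pair. RPL7L1, a paralog of RPL7, had 44.4, 33.7 and 27.9 FPKM in 90 and 55.9, 54.5 and 57.1 FPKM in PANC-1. Its difference was 0.67 log2 (SE 0.17, adjusted p = 0.0298), a call kept in 0 of 6 fits without 1 library and in 2 of 4 scalings. RPL7 itself varied more between libraries of a line than between the lines, with 266, 419 and 253 FPKM in 90 and 402, 161 and 364 FPKM in PANC-1, and again siALDOA 1 was the highest library of 90 and the lowest of PANC-1. RPL26L1 had 37.9, 37.8 and 46.4 FPKM in 90 and 34.6, 39.2 and 38.0 FPKM in PANC-1, 4.23% to 7.16% of its pair, and its difference was -0.12 log2 (SE 0.13, adjusted p = 0.536).

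The second comparison set siALDOA against NC over both lines and asked whether ribosomal protein mRNAs change when ALDOA is lowered. No member passed: 0 of 82 were called, as were 0 of 12592 genes (background 0.0%). ALDOA itself was among the genes not called, although it stood at 36.1% to 55.3% of NC in the siALDOA libraries. The test thus missed a change of that size. At an unadjusted p under 0.05 there were 43 genes, with 0 members among them. Few genes of any kind reached that threshold, so this 0 says little about the members. The values of the members nevertheless lay to 1 side. Their median was -0.20 log2, beside 0.01 log2 for all tested genes, and 80 of 82 members were below 0. The standard error of a member's change had a median of 0.18 log2 (0.11 to 0.64), so the member median is about as large as the error of 1 gene, and the absence of calls does not show that members were unchanged. The member median was smaller with TPM, at -0.13 log2 beside 0.07 for all genes, and with quantile normalization, at -0.095 log2 beside -0.03 for all genes, where 74 of 82 were below 0. RPL26L1 (0.15 log2) and RPL36AL (0.11 log2) were the 2 above, and RPL36AL was at -0.0023 log2 once values were corrected for GC content. All 4 siALDOA libraries lay below the NC library of their line for 34 members (41.5%, against a background of 5.82%), and all 4 above for 0 members (background 3.39%). With TPM the first count was 29 (background 4.05%) and the second 1, with median-ratio scaling 18 (background 3.28%) and 0, and with quantile normalization 24 (background 4.29%) and 1. Each line has a single NC library that all its siALDOA libraries share, and the members are not independent of each other.

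The smallest p-values among the lower members belonged to RPS23, RPL21 and RPL24. RPS23, a small-subunit protein of the decoding centre, had 192, 155 and 163 FPKM in 90 and 202, 178 and 161 FPKM in PANC-1, with a difference of -0.26 log2 (SE 0.11, unadjusted p = 0.0627). RPL21 had 30.8, 23.8 and 23.0 FPKM in 90 and 42.9, 38.3 and 35.6 FPKM in PANC-1 and -0.30 log2 (SE 0.12, unadjusted p = 0.0634). RPL24, a large-subunit protein that bridges to the small subunit, had 798, 734 and 664 FPKM in 90 and 1046, 788 and 828 FPKM in PANC-1 and -0.28 log2 (SE 0.12, unadjusted p = 0.0646). For all 3 genes, both siALDOA libraries of each line lay below NC, and the adjusted p over all genes was 0.99999. Among the abundant members, RPS2 stood at -0.23 log2 (SE 0.20), RPLP1 at -0.32 log2 (SE 0.21) and RPS6 at -0.24 log2 (SE 0.13).

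The libraries contributed unequally. The median member change from NC was -0.31 log2 in siAldoa 1 and -0.02 log2 in siAldoa 2 of 90, and -0.10 log2 in siALDOA 1 and -0.34 log2 in siALDOA 2 of PANC-1. For all tested genes the same medians were -0.02, 0.00, 0.02 and 0.03 log2. Members below NC numbered 71, 45, 72 and 76 of 82 in that order, against backgrounds of 52.1%, 49.2%, 47.1% and 46.5%. Within 90 the median member effect was -0.17 log2 with 8 members above 0, and it was -0.02 without siAldoa 1 and -0.31 without siAldoa 2. With quantile normalization it was -0.074 log2, while all genes had -0.11 log2, so the members no longer lay below the rest in 90. Within PANC-1 the median was -0.25 log2 with 2 members above 0, and it was -0.34 without siALDOA 1, -0.10 without siALDOA 2 and -0.12 with quantile normalization (0.0098 for all genes).

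The change from NC moved with GC content, in opposite directions in the 2 siALDOA libraries of a line. Its Pearson correlation with GC content over the 82 members was -0.44 and 0.39 in siAldoa 1 and 2 of 90, and 0.37 and -0.45 in siALDOA 1 and 2 of PANC-1. The 20 members of lowest GC (up to 44.7%) had median changes of -0.16, -0.09, -0.18 and -0.32 log2, and the 21 of highest GC (from 53.9%) had -0.41, 0.08, -0.05 and -0.45 log2. With values corrected for GC content, the member median over both lines was -0.20 log2. The widest single changes were those of RPL36AL, with a GC content of 42.4%, at 1.32 log2 in siAldoa 1 of 90 and -1.43 log2 in siALDOA 1 of PANC-1. The part of GC content in the member changes beyond that correction was not tested.

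**Figure D5:**
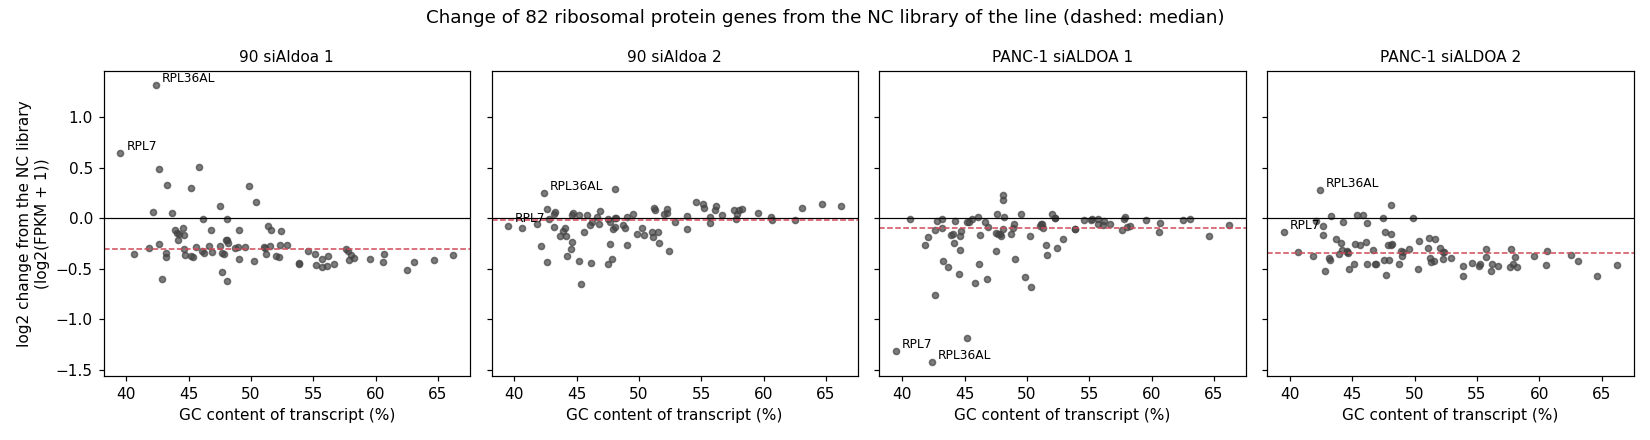
Change of each of the 82 tested members in log2(FPKM + 1) from the NC library of its line (vertical axis) against the GC content of its longest protein-coding transcript in percent (horizontal axis), with 1 panel per siALDOA library. The dashed lines are the member medians (-0.31, -0.02, -0.10 and -0.34 from left to right), and RPL36AL and RPL7 are among the points that change sign between siALDOA 1 of 90 and siALDOA 1 of PANC-1.

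Within single lines no member passed either, with 0 of 82 called in 90 and 0 of 82 in PANC-1 (background 0.0% each), and 0 members among the 33 and 21 genes with an unadjusted p under 0.05. These fits have 2 residual degrees of freedom, and they give the only NC library of each line the spread of its siALDOA libraries. ALDOA itself was not called in them either. In 90 the smallest p-values belonged to RPL7L1 (-0.52 log2, SE 0.25) and RPL21 (-0.38 log2, SE 0.23) among lower members, and to RPL36AL (0.79 log2, SE 0.88) and RPL22L1 (0.29 log2, SE 0.43) among those above 0. In PANC-1 they belonged to RPL31 (-0.52 log2, SE 0.21) and RPS27A (-0.44 log2, SE 0.25), which encodes ubiquitin fused to a small-subunit protein, and above 0 to RPL26L1 (0.15 log2, SE 0.25) and RPL27A (0.04 log2, SE 0.35). The interaction, the siALDOA effect in PANC-1 minus that in 90, had a member median of -0.08 log2 and 0 calls (background 0.0%), with 24 genes and 0 members at an unadjusted p under 0.05. RPL7L1 (0.52 log2, SE 0.35), RPS4X (0.26 log2, SE 0.32), RPL31 (-0.44 log2, SE 0.30) and RPL22L1 (-0.71 log2, SE 0.61) had the smallest p-values in either direction. Leaving out 1 siALDOA library moved that median between -0.24 and 0.10 log2, so its sign depends on single libraries.

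Other genes of the pathway give the surroundings of these values. FAU, a ribosomal protein made as a fusion with a ubiquitin-like protein, and the ribosome-bound scaffold GNB2L1 (RACK1) showed 0 calls between the lines. Among 24 tested translation factors and other mRNAs known to carry a TOP motif, 4 were higher and 2 lower in PANC-1, with a median of 0.17 log2. Of all tested genes 20.4% were called higher and 18.4% lower, so these counts do not exceed the background. EIF3K, a subunit of initiation factor eIF3, had 205, 164 and 204 FPKM in 90 and 2001, 1831 and 1499 FPKM in PANC-1 (3.21 log2, SE 0.15). TPT1, a classical TOP mRNA, had 907, 815 and 879 FPKM in 90 and 167, 162 and 148 FPKM in PANC-1 (-2.44 log2, SE 0.10). For both genes the lines did not overlap.

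Mitochondrial ribosomal proteins, which are made in the cytosol for a separate ribosome, had 27 of 76 members higher and 3 lower in PANC-1, with a median of 0.46 log2, beside 0.13 log2 for all tested genes, of which 20.4% were called higher and 18.4% lower. MRPS12 had 70.3, 51.0 and 75.1 FPKM in 90 and 649, 635 and 487 FPKM in PANC-1 (3.16 log2, SE 0.20). Of 11 ribosomal protein chaperones and escort factors, PDCD2L (1.71 log2), PDCD2 (1.69 log2) and AAMP (0.76 log2) were higher and 0 lower. PDCD2 and PDCD2L bind newly made RPS2. Of 25 regulators of ribosomal protein mRNAs, 5 were higher and 4 lower, which is near the shares of all tested genes. Among the lower was EIF4EBP1, the mTOR-controlled repressor of cap-dependent initiation, at -1.02 log2 (SE 0.19). With siALDOA, 0 genes of these lists were called. Their members lay below 0 in 20 of 24 TOP mRNAs (median -0.10 log2), in 70 of 76 mitochondrial ribosomal proteins (median -0.13 log2), in 9 of 11 chaperones (median -0.14 log2) and in 10 of 25 regulators (median 0.01 log2).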

How the data were processed

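The authors deposited FPKM values per gene and library for 6 libraries. The submitters' processing notes list HISAT2, featureCounts and the genome build hg38. The sources used here give no versions, strand use, gene lengths or treatment of multiply matching fragments. Of 41769 rows, 1 had no gene name and was left out. Depth was read from low values, of which 96.1% to 97.1% fell on whole multiples of a step (multiples up to 8, tolerance 0.03 of a step); without gene lengths, fragment numbers could not be rebuilt.

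Fits used log2(FPKM + 1), which understates fold changes of low genes. The 12592 genes whose mean reached 1 FPKM were fitted with limma 3.58.1 (R 4.3.3) with an intensity trend. Calls are two-sided, at a Benjamini-Hochberg adjusted p below 0.05. PANC-1 against 90 and siALDOA against NC came from 1 fit with terms for line and siALDOA (3 residual degrees of freedom), and effects within lines and their difference from a fit of group means (2 residual degrees of freedom). The fits were tested on simulated data, where most changes of 1 log2 unit were not called at the spread of these libraries. The siALDOA numbers were not treated as pairs.

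Positions, transcript length and GC content came from GENCODE v29 and start sites from RefSeq. Length and GC content of the 84 members are those of the longest protein-coding transcript, while the GC correction used the longest transcript of any type. These need not be the transcripts expressed here. Other steps used Python 3.11.15 with pandas 2.3.3, numpy 2.4.6 and matplotlib 3.10.9.

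The members and lists were chosen with earlier results of these data known. Named genes are the paralogs with their parents, the 6 highest and 6 lowest in level, up to 12 called members per direction, the smallest p-values where none was called (3 per direction over both lines, 2 within lines and for the difference), the 3 farthest from the member median on each side, and up to 4 called genes of a list. Further called members are named to fill the count; 1 gene that matches the symbol pattern was left out of the members, and some members and listed genes enter counts but are not reported here. Alternatives were other pseudocounts, filters, scalings, a replicate block, a GC correction and leaving out libraries.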

Additional observations from a re-analysis of the deposited data

Results flagged for a closer look

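RPL22L1, the paralog of RPL22, was picked out because both siAldoa libraries of 90 lay above the NC library (19.9 and 14.9 against 13.96 FPKM) and both siALDOA libraries of PANC-1 lay below it (6.27 and 10.7 against 11.3 FPKM). The effect was 0.29 log2 in 90 and -0.42 log2 in PANC-1. The test of the difference between these effects, an interaction in limma, gave -0.71 log2 (SE 0.61, unadjusted p = 0.306, adjusted p = 0.999985), so a difference between the lines was not shown.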

How the results depend on the processing

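For PANC-1 against 90, the count of 33 called members lay between 5 and 25 without 1 library, and that of all genes between 2422 and 4110. Both counts were lowest without an NC library, where the 2 fits compare the siALDOA libraries alone. With a replicate block, 11 members were called (5 higher, 6 lower), beside 3258 of all genes. The numbers are not shown to pair the libraries: over 12592 genes, the deviations of same-numbered siALDOA libraries had a correlation of -0.86 (2 pairs). A block with the numbers crossed, chosen after seeing the data, called 65 members (24 higher, 41 lower), beside 7594 of all genes. Under 4 scalings (TPM, median ratio, quantile and GC correction) 18 of the 33 kept their call in each. The median difference was -0.30 log2 with median-ratio scaling, -0.048 with quantile normalization and -0.14 with TPM. Quantile normalization called 49 members (23 higher, 26 lower) beside 4286 of all genes, and TPM 41 beside 5320. Centring on the members' median, also chosen after seeing the data, moves medians toward 0 by its construction: 0.052 between the lines, 1.4e-05 for siALDOA over both lines, 0.058 within 90 and -0.071 within PANC-1. With pseudogene rows added, RPS28 reversed to -0.75 log2 and RPL9 to -0.29 log2, on sums of FPKM that depend on row lengths. For siALDOA, 0 members were called at an adjusted p under 0.05 under every alternative run. With the crossed block, 62 of 82 members had an unadjusted limma p under 0.05, beside 897 of 12592 genes and 0 members in the main fit. The crossing was chosen on these same data, so those p-values cannot be taken at face value. Without 1 library, the member median ranged from -0.31 to -0.021 log2 within 90, from -0.34 to -0.10 within PANC-1 and from -0.24 to 0.10 for the difference between these effects; leaving out the lone NC library of a line gives that line no value. With quantile normalization the siALDOA median was -0.095 log2 over both lines and -0.074 within 90. The members below NC in all 4 libraries numbered 34, 18 with median-ratio scaling and 24 with quantile normalization. RPL36AL, at 0.11 log2, turned to -0.0023 with the GC correction and ranged from -0.58 to 0.79 without 1 library, below 0 without 90 NC, siAldoa 1 of 90 or siALDOA 2 of PANC-1. Where not stated, the cause was not tested. Counting error is small for these abundant rows; 3 libraries per line, with 1 NC library each, limit the precision.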
